A study of Mus musculus with 12 samples.

Results

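The 10 genes described here are known for work in germ cells and in meiosis: *Prdm1*, *Dppa3*, *Dazl*, *Ddx4*, *Mael*, *Stra8*, *Sycp1*, *Sycp3*, *Smc1b* and *Tex101*. They were taken by gene name, and *Stra8* was chosen by its signal in these ES cells, where it was higher in Sox7-/- cells. Its values in ES cells and in the comparisons that use them are therefore given as a description with no test, and the other 9 genes were read to see whether further germline genes differed. The arrays held 11 probes for the 10 genes, 2 of them for *Sycp3*, out of 55681 probes with 34836 gene names. All 11 were among the 25938 probes tested, for which 1 group or more had to be well above background in each of its 3 arrays.

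All cells came from the mouse ES cell line EB3 and carried Gata6-GR, a fusion of the transcription factor Gata6 with the ligand-binding part of the glucocorticoid receptor, driven by the CAG promoter and switched on by dexamethasone (Dex). One group was Sox7+/- ES cells, kept without Dex to day 4, and Sox7+/- XEN-like cells were the same cells after 4 days with Dex, which turns them towards extraembryonic endoderm. The corresponding ES and XEN-like cells without *Sox7* made up the 2 Sox7-/- groups. In Sox7+/- cells a drug resistance cassette replaced the coding exons of 1 *Sox7* allele, and the Sox7-/- cells were obtained from that heterozygous line by selection at a high dose of puromycin. Both genotypes thus carry the cassette, each is a single line as far as the methods say, and no wild-type cells were hybridized. Each group had 3 one-colour arrays, and nothing in the sources says that these were separate cultures, so the p-values measure the spread between these arrays, which may be technical. For the Sox7+/- ES cells the source labels give replicate 1 throughout, although the titles run from 1 to 3.

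Germ cells of the mouse arise from the epiblast, the tissue that ES cells resemble, when signals induce a small set of factors that includes *Prdm1*. Later genes of the germ line are held silent in most other cells by DNA methylation and by a Polycomb complex with the DNA-binding proteins Mga, Max and E2f6, and ES cells are known to transcribe several of them at some level. Meiosis begins when retinoic acid induces *Stra8*, after which the synaptonemal complex ties homologous chromosomes together. Extraembryonic endoderm does not give rise to germ cells.

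The level of a gene is given as the signal of its probe in percent of the 75th percentile of the same array, and levels of different probes were not set against each other. Differences are on the log2 scale, from a fit with limma across all 12 arrays, with a standard error (SE) and a Benjamini-Hochberg adjusted p over all tested probes. A gene was called higher or lower at an adjusted p under 0.05 together with a change of over 2-fold. Where a probe was not well above background on any array of the dimmer group, its fold is a lower bound, the bright group's mean against the lowest signal that passes as above background or, on an array where the probe's own signal was higher than that, against its own signal. The adjusted p and the call beside such a bound are those of the fitted difference, which includes the signals below background. A bound under 2-fold can therefore stand beside a call. The 75th percentile was 252.3 to 415.9 intensity units per array and 41.7% to 52.3% of spots were well above background. The arrays lay on 2 slides, with all Sox7-/- ES cells on slide 1, together with the first replicate of the Sox7-/- XEN-like cells, and the other 8 on slide 2, so the genotypes in ES cells can be compared across slides only. *Sox7* itself (probe at chr14:64569419-64569478, mm9) was at 224% ± 5.42 (SD, n = 3) in Sox7+/- ES cells and 558% ± 113 in Sox7+/- XEN-like cells. It was not well above background on any of the 6 Sox7-/- arrays, which were at least 24.6-fold lower in ES cells and at least 72.6-fold lower in XEN-like cells. All 10 ES cell markers were above background in both groups of ES cells, *Nanog*, *Sox2* and *Fgf4* were not on any XEN-like array, and the summed signal of 10 extraembryonic endoderm markers was 262085% to 319008% in XEN-like cells against 118052% to 148731% in ES cells.

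In ES cells the genotypes differed in single germline genes. Of the 9 genes other than *Stra8*, 2 were lower in Sox7-/- ES cells, *Dppa3* and *Smc1b*, against a background of 6.67% of all tested probes called lower. No gene was called higher, against 1.95% of all probes, although *Dazl* was 1.99-fold higher, just under the threshold of size. At an unadjusted p under 0.05 limma gave 2 genes higher and 3 lower, and by the adjusted p alone 4 of the 9 passed. The median log2 difference of the 9 was −0.25, beside 0.10 over all tested probes. The count was 3 with quantile normalization, where *Dazl* was called higher (1.13, limma adjusted p = 0.000326). It was also 3 with spike-in scaling, where *Tex101* was called lower (−1.07, limma adjusted p = 0.000619). With the slide as a block, which rests on the 3 Sox7-/- XEN-like arrays to join the slides, only *Dppa3* was called, and without Sox7+/- ES replicate 2 the count was 4, with *Dazl* (1.04) and *Tex101* (−1.06) added.

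After 4 days of Dex the picture was another one. In XEN-like cells 5 of the 10 genes were higher in Sox7-/- cells, *Ddx4*, *Mael*, *Smc1b*, *Stra8* and *Sycp3*, where 3.86% of all tested probes were called higher. None was called lower, where 3.64% of all probes were. At an unadjusted p under 0.05 limma gave 2 lower genes, *Dazl* and *Dppa3*, neither of them above background in any XEN-like array. Both also passed the adjusted p (limma, 0.0431 and 0.0491) and missed the fold. By the adjusted p alone 7 of the 10 passed. The median log2 difference of the 10 was 0.88, beside 0.0007 over all tested probes. The same count of 5 was obtained within slide 2 alone. Only *Ddx4* and *Sycp3* were above background on all 6 XEN-like arrays. With the deposited table of signals without background subtraction these were the 2 genes called, and with normexp background correction *Sycp3* was the 1 gene called.

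**Figure D1:**
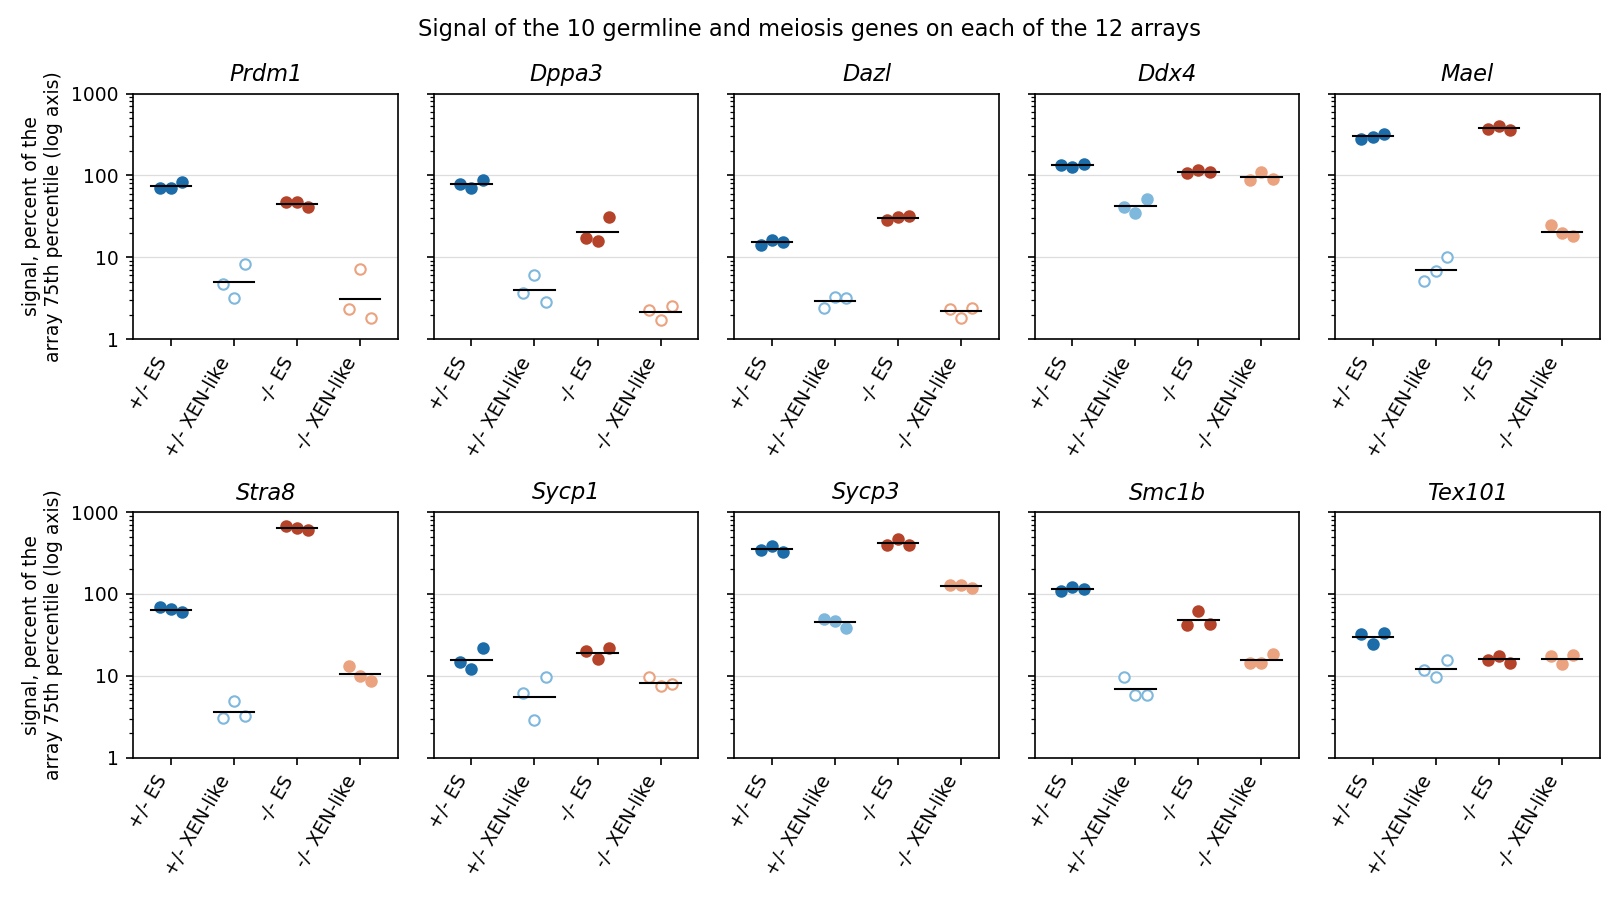
Signal of each gene on each of the 12 arrays, in percent of the array's 75th percentile on a log axis, by group, with 3 arrays per group; the black line is the mean of the log values, and open circles mark groups in which fewer than 3 arrays were well above background. *Stra8* was at 611% to 672% in Sox7-/- ES cells and at 60.4% to 68.3% in Sox7+/- ES cells, and most genes lay lower in both XEN-like groups.

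**Figure D2:**
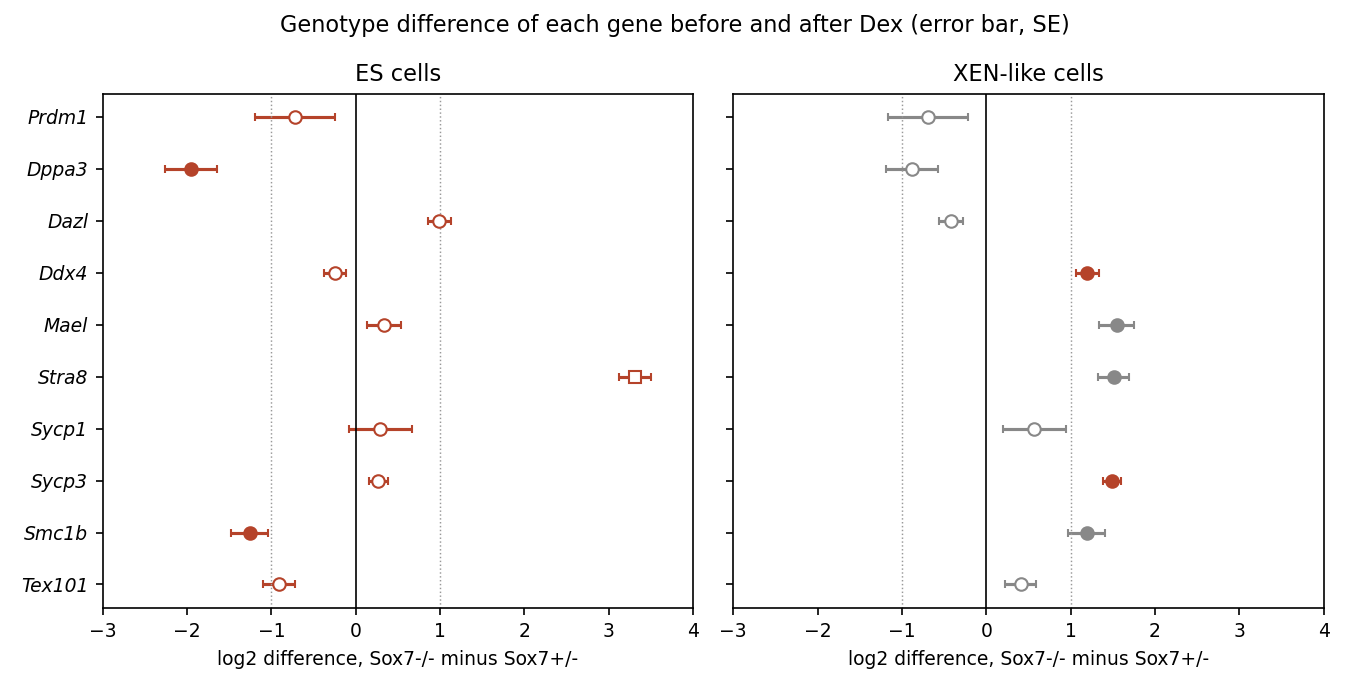
Log2 difference of each gene, Sox7-/- minus Sox7+/-, in ES cells and in XEN-like cells, with the SE of the fit as error bar; filled symbols were called, the open square is *Stra8*, described with no test in ES cells, grey marks genes not well above background on every array of both groups, and dotted lines are 2-fold. The 2 genes called in ES cells lie left of 0 and the 5 called in XEN-like cells lie right of 0.

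*Prdm1* and *Dppa3* belong to the founding of the germ line. *Prdm1* encodes Blimp1, the repressor that turns epiblast cells towards germ cells. Its probe (chr10:44157089-44157148) read 69.9%, 70.0% and 83.2% in Sox7+/- ES cells and 47.0%, 47.1% and 41.3% in Sox7-/- ES cells. The groups did not overlap, but the log2 difference of −0.72 (SE 0.47) did not pass the test (limma, adjusted p = 0.24). That SE pools the spread of all 4 groups. The log2 SD of *Prdm1* was 0.14 in Sox7+/- and 0.11 in Sox7-/- ES cells, against 0.70 and 1.06 in the XEN-like groups. In XEN-like cells *Prdm1* was not above background on any array, at 3.17% to 8.35% in Sox7+/- and 1.79% to 7.14% in Sox7-/- cells. It fell with Dex at least 6.78-fold in Sox7+/- cells (adjusted p = 4.53e-05) and at least 5.94-fold in Sox7-/- cells (adjusted p = 3.92e-05). Having entered the test through the ES cells, *Prdm1* could not have been called higher with Dex.

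*Dppa3*, also known as Stella, protects maternal methylation in the zygote and marks early germ cells, and ES cells express it unevenly. Its probe (chr6:122580207-122580266) read 78.3%, 70.4% and 87.9% in Sox7+/- ES cells and 17.0%, 16.0% and 30.7% in Sox7-/- ES cells. The third Sox7-/- array stood above the other two, and all 3 were below every Sox7+/- array. *Dppa3* was 3.87-fold lower in Sox7-/- ES cells (log2 difference −1.95, SE 0.31, limma adjusted p = 0.000734), and −2.09 with the slide block (adjusted p = 0.0496). No XEN-like array of either genotype was above background for it, with 2.82% to 6.01% and 1.70% to 2.56%. *Dppa3* fell with Dex in both genotypes, at least 7.18-fold in Sox7+/- cells (adjusted p = 8.71e-07) and at least 2.68-fold in Sox7-/- cells (adjusted p = 6.06e-06). This gene too entered the test through the ES cells, so a rise could not have been called.

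The genes for RNA regulators of germ cells differed among themselves. *Dazl* encodes an RNA-binding protein that germ cells need for translation of their mRNAs. At its probe (chr17:50418923-50418982) the Sox7+/- ES arrays read 14.2%, 16.3% and 15.5%, and the Sox7-/- ES arrays 28.7%, 31.0% and 31.8%. Every Sox7-/- array was above every Sox7+/- array, with a log2 difference of 0.99 (SE 0.14, limma adjusted p = 0.000376). *Dazl* passed the adjusted p and not the fold, and with the slide block the difference was 0.83 (adjusted p = 0.0703). It was the single gene of the 9 other than *Stra8* with an adjusted p under 0.05 in the direction of *Stra8* in ES cells. In XEN-like cells *Dazl* was below background throughout, at 1.82% to 3.25%. The fall with Dex was at least 1.40-fold in Sox7+/- cells (fitted difference −2.39, adjusted p = 1.89e-07). In Sox7-/- cells it was at least 4.02-fold (fitted difference −3.80, adjusted p = 4.84e-09). With only ES arrays above background, a rise of *Dazl* could not have been called.

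*Ddx4*, the Vasa helicase of germ granules, was above background on all 12 arrays at its probe (chr13:113388616-113388675). Sox7+/- ES cells had 134%, 126% and 137%, and Sox7-/- ES cells 106.5%, 117% and 111%. These differed by −0.25 (SE 0.13), which did not pass the test (limma, adjusted p = 0.16). The XEN-like cells stood apart, with 41.6%, 34.8% and 50.9% in Sox7+/- cells and 89.0%, 111% and 89.9% in Sox7-/- cells. Each Sox7-/- XEN-like array was thus above each Sox7+/- XEN-like array, and *Ddx4* was 2.29-fold higher there (log2 difference 1.20, SE 0.13, adjusted p = 0.000137). *Ddx4* fell 3.15-fold with Dex in Sox7+/- cells (adjusted p = 2.24e-06), whereas in Sox7-/- cells the XEN-like and ES arrays overlapped and the difference was −0.21 (SE 0.13, adjusted p = 0.195).

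*Mael* encodes maelstrom, a protein of the piRNA pathway that silences transposons in germ cells. Its probe (chr1:168131583-168131642) read 282%, 296% and 319% in Sox7+/- ES cells and 372%, 398% and 362% in Sox7-/- ES cells. The groups did not overlap, but the difference of 0.34 (SE 0.21) did not pass the test (limma, adjusted p = 0.21). With the slide block it was −0.034. The pooled SE again included wider XEN-like groups, with log2 SDs of 0.49 in Sox7+/- and 0.22 in Sox7-/- cells. In ES cells these were 0.089 and 0.070. In XEN-like cells the signal was down to 5.19%, 6.71% and 10.1% in Sox7+/- cells, none above background, and 24.4%, 19.6% and 18.2% in Sox7-/- cells, all above background. *Mael* was at least 1.89-fold higher in Sox7-/- XEN-like cells (fitted difference 1.54, adjusted p = 0.000407). Its fall with Dex was at least 27.3-fold in Sox7+/- cells and 18.3-fold in Sox7-/- cells (adjusted p = 8.32e-09 and 3.93e-08).

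*Stra8* is the gene that retinoic acid induces at the entry into meiosis, and its protein is a transcription factor of meiotic prophase. It was selected on the following ES cell values. Its probe (chr6:34889237-34889296) read 68.3%, 65.0% and 60.4% in Sox7+/- ES cells and 672%, 636% and 611% in Sox7-/- ES cells. The log2 difference was 3.31, or 9.91-fold, and 2.80 with the slide block. After Dex the Sox7-/- cells were at 13.2%, 9.91% and 8.66%, above background on all 3 arrays, and the Sox7+/- cells at 3.08%, 4.89% and 3.25%, above background on none. The fall with Dex was thus 61.3-fold in Sox7-/- cells and at least 5.90-fold in Sox7+/- cells, as a description. The order of the groups was Sox7-/- ES, Sox7+/- ES, Sox7-/- XEN-like and Sox7+/- XEN-like cells, and no neighbours in it overlapped. The XEN-like comparison was not used in the choice. There *Stra8* passed the test as higher in Sox7-/- cells (limma adjusted p = 0.000256, and 0.00602 within slide 2). The call was lost with normexp correction, at a difference of 0.14 (adjusted p = 0.2), and with the deposited table, at 0.61 (adjusted p = 0.00544). The Sox7-/- signal did not exceed the lowest signal that passes as above background on the Sox7+/- arrays, so no size is given.

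The synaptonemal complex and cohesin genes came from both ends of the range. *Sycp1* encodes the transverse filament between paired chromosomes. Its probe (chr3:102622573-102622632) read 14.5%, 11.998% and 21.6% in Sox7+/- ES cells and 20.0%, 16.0% and 21.6% in Sox7-/- ES cells. These overlapped, with a difference of 0.29 (SE 0.38, limma adjusted p = 0.558). No XEN-like array was above background for *Sycp1*, at 2.90% to 9.67%. It fell with Dex at least 1.42-fold in Sox7+/- cells (fitted difference −1.48, adjusted p = 0.00618). In Sox7-/- cells the fall was at least 2.30-fold (adjusted p = 0.0168), against its own dim signals. With the slide block the fall in Sox7-/- cells was no longer called (−0.98, adjusted p = 0.171). Since *Sycp1* entered the test through the ES cells, a rise with Dex could not have been called.

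*Sycp3* encodes the protein of the lateral elements, along which each meiotic chromosome is arranged. Its brighter probe (chr10:87935675-87935734) was above background on all 12 arrays. It read 344%, 384% and 322% in Sox7+/- ES cells and 394%, 469% and 400.0% in Sox7-/- ES cells, a difference of 0.26 (SE 0.11) that did not pass the test (limma, adjusted p = 0.0796). In XEN-like cells the Sox7+/- arrays read 49.3%, 47.1% and 38.7% and the Sox7-/- arrays 129%, 129.9% and 119%, with no overlap. *Sycp3* was therefore 2.81-fold higher in Sox7-/- XEN-like cells (log2 difference 1.49, SE 0.11, adjusted p = 9.68e-06). The second probe, which spans chr10:87932348-87935438, gave 3.15-fold (1.66, SE 0.15, adjusted p = 3.27e-05) in XEN-like cells and 0.0050 (SE 0.15, adjusted p = 0.982) in ES cells, so the probes had the same calls. With Dex *Sycp3* fell 7.80-fold in Sox7+/- cells and 3.34-fold in Sox7-/- cells (adjusted p = 7.87e-09 and 3.01e-07).

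*Smc1b* encodes a cohesin subunit found in meiotic cells, and it was called lower without *Sox7* in ES cells and higher in XEN-like cells. The probe (chr15:84895193-84895252) read 109%, 121% and 115% in Sox7+/- ES cells and 41.4%, 62.2% and 43.2% in Sox7-/- ES cells. *Smc1b* was 2.39-fold lower in Sox7-/- ES cells (log2 difference −1.26, SE 0.22, limma adjusted p = 0.00125), a call lost with the slide block (−1.08, adjusted p = 0.123). In XEN-like cells the Sox7+/- arrays read 9.72%, 5.82% and 5.74%, none above background, and the Sox7-/- arrays 14.5%, 14.5% and 18.4%, all above background. There *Smc1b* was at least 1.42-fold higher in Sox7-/- cells (fitted difference 1.19, adjusted p = 0.00265). It fell with Dex at least 10.4-fold in Sox7+/- cells and 3.07-fold in Sox7-/- cells (adjusted p = 9.79e-08 and 8.27e-05).

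*Tex101* encodes a surface glycoprotein of germ cells. Its probe (chr7:25453040-25453099) read 32.5%, 24.3% and 33.4% in Sox7+/- ES cells and 15.5%, 17.7% and 14.4% in Sox7-/- ES cells, with no overlap. The difference of −0.91 (SE 0.19, limma adjusted p = 0.0032) stayed under 2-fold. Sox7+/- XEN-like cells had 11.9%, 9.79% and 15.7%, the second of them not above background, and Sox7-/- XEN-like cells 17.4%, 13.8% and 17.8%. These overlapped and did not pass the test (0.41, SE 0.19, adjusted p = 0.12). *Tex101* fell 2.44-fold with Dex in Sox7+/- cells (adjusted p = 0.000175) and differed by 0.035 (SE 0.19, adjusted p = 0.882) in Sox7-/- cells.

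The promoters of the 5 genes called in XEN-like cells are printed here because these genes were higher together. RefSeq promoters on GRCm38.p6 were matched by symbol for 9 of the 10 genes, all but *Dppa3*. Each covers 250 bases before and 50 after the annotated start, of which the 250 upstream bases are shown 5′ to 3′ on the strand of the gene. Capitals mark CACGTG, the E-box that Max with its partners binds, and TCCCGC, the core of the E2F6 site, with TCCCGC on the opposite strand read as GCGGGA. Both motifs were searched on both strands and no matches overlapped. The stretches are chr13:112652311-112652560 (minus strand) for *Ddx4*, chr1:166238745-166238994 (minus) for *Mael*, chr10:88459337-88459586 (plus) for *Sycp3*, chr15:85131958-85132207 (minus) for *Smc1b* and chr6:34920698-34920947 (plus) for *Stra8*.
Ddx4: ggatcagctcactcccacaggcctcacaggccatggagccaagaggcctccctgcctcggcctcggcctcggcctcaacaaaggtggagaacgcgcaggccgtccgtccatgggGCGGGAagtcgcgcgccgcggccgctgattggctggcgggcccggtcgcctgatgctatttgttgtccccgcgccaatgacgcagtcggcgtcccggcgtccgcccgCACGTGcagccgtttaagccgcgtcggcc
Mael: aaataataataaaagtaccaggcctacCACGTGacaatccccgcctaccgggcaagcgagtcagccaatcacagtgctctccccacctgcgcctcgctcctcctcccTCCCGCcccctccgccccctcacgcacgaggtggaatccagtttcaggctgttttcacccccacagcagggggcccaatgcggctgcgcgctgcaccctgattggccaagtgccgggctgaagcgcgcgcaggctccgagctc
Sycp3: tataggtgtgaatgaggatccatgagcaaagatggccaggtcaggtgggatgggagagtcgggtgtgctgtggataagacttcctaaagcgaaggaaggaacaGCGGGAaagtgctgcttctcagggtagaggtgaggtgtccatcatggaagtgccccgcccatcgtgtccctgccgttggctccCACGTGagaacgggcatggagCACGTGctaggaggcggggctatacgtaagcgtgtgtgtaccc
Smc1b: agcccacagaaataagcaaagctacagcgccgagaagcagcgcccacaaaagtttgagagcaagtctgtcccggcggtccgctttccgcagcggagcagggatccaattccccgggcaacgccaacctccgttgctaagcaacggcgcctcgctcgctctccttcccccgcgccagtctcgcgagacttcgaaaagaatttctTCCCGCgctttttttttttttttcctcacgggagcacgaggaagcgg
Stra8: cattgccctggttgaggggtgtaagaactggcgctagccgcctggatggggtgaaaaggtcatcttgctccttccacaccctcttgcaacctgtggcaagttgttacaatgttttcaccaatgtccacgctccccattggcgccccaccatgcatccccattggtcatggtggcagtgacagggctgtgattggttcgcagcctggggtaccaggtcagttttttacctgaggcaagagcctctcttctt

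CACGTG was found in 4 of the 9 promoters over their 300 bases, beside 7.15% of all 32851 promoters of the table. *Sycp3* held it at positions −64 and −43, *Ddx4* at −29, *Sycp1* at −94 and *Mael* at −223, counted from the annotated start to the first base of the match. TCCCGC was found in 5 of the 9, beside 20.0% of all promoters. It lay at −136 in *Ddx4*, −147 in *Sycp3*, −47 in *Smc1b*, −143 and 12 in *Mael* and 3 in *Sycp1*. Of the 5 genes called in XEN-like cells 4 held a motif, and of the 4 others with a promoter 1 did, *Sycp1*. Of these others, *Dazl*, *Prdm1* and *Sycp1* were not above background on any XEN-like array. Their lack of a call therefore does not show equal expression, and whether the motifs go with the calls was not tested. The promoters of *Stra8*, *Dazl*, *Prdm1* and *Tex101* held neither motif in this window, where 25.1% of all promoters held at least 1. The count of CG dinucleotides ran from 38 in *Ddx4*, 29 in *Smc1b* and 28 in *Dazl* down to 15 in *Sycp3* and 10 in *Stra8*, beside a median of 7 over all promoters with quartiles of 3 and 20. These are matches of letters, and binding and methylation were not measured here.

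With Dex the germline genes were lower in both genotypes. In Sox7+/- cells all 9 genes other than *Stra8* fell, where 14.0% of all tested probes were called lower and 11.0% higher. Their median log2 difference was −2.96, beside 0.16 over all tested probes. In Sox7-/- cells 7 of the 9 fell, where 14.2% of all probes were called lower and 14.6% higher, and the median was −1.74, beside 0.07. The exceptions were *Ddx4* and *Tex101*. Scaled by the spike-in probes, 5460 of all probes were called lower and 1262 higher in Sox7+/- cells, in place of 3620 and 2850, and the counts of 9 and 7 germline genes did not change. They were 6 and 4 with normexp correction and 6 and 6 with the deposited table. *Prdm1*, *Dppa3*, *Dazl* and *Sycp1* were above background in ES cells only, so they entered the test through those groups and could not have been called higher. Among the genes above background on all 12 arrays, *Ddx4* and *Sycp3*, 2 fell in Sox7+/- cells and 1 in Sox7-/- cells. ES cell markers moved the same way, with 9 of 10 called lower in Sox7+/- cells and 10 of 10 in Sox7-/- cells. Fewer cells of a kind and less RNA per cell cannot be told apart in these bulk samples.

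Whether the genotypes responded differently to Dex was tested as an interaction in the same fit. Of the 9 genes, 5 had a log2 response that was higher in Sox7-/- cells, against 6.62% of all tested probes, and 1 had a lower one, against 3.17%. *Ddx4* (1.45, SE 0.19, limma adjusted p = 0.000436) and *Sycp3* (1.22, SE 0.16, adjusted p = 0.000396, and 1.65 at the second probe) were above background on all 12 arrays. *Smc1b* (2.45, SE 0.31, adjusted p = 0.000338), *Mael* (1.21, SE 0.29, adjusted p = 0.0127) and *Tex101* (1.32, SE 0.27, adjusted p = 0.00522) had Sox7+/- XEN-like arrays below background, 3, 3 and 1 of 3. *Dazl* went the other way (−1.41, SE 0.20, adjusted p = 0.000655) with its XEN-like arrays all below background. Where XEN-like arrays are below background, the size of the interaction is not a measured one. With normexp correction the count was 2, *Ddx4* and *Smc1b*, and *Mael* was at 0.024.

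**Figure D3:**
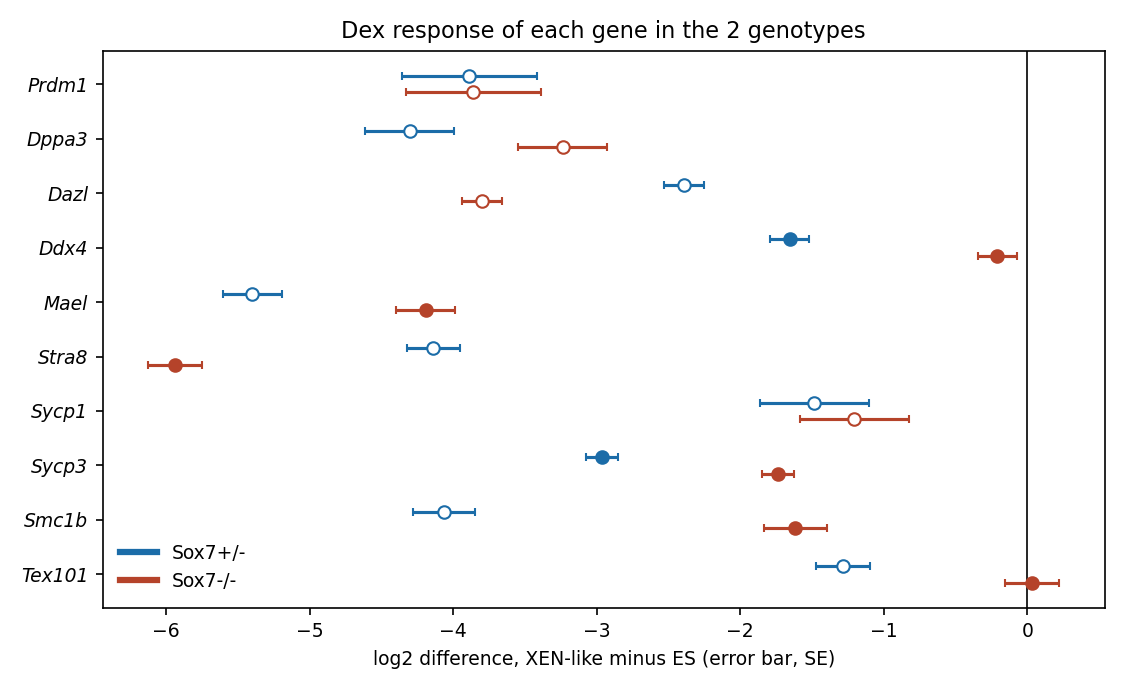
Log2 difference between XEN-like and ES cells of each gene in Sox7+/- and Sox7-/- cells, with the SE of the fit as error bar; open circles mark genes not well above background on all 3 XEN-like arrays of that genotype. *Ddx4* and *Tex101* lie near 0 in Sox7-/- cells, at −0.21 and 0.035, and all genes lie left of 0 in Sox7+/- cells.

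Other genes of the germ line were read from lists put together from general knowledge. Of 32 further meiosis genes 29 were on the array and 20 passed the filter on dim probes. In ES cells 3 of these 20 were higher in Sox7-/- cells, *Tex11*, *Tex12* and *Sohlh2*, and none was lower by the call, while 3 were lower at an unadjusted p under 0.05. Of all tested probes 1.95% were called higher and 6.67% lower there. *Tex11*, a gene for a protein of meiotic recombination sites, was at 11.8% to 17.0% in Sox7+/- and 43.4% to 52.1% in Sox7-/- ES cells (log2 difference 1.71, SE 0.15, limma adjusted p = 1.6e-05). *Tex12*, for a central element protein of the synaptonemal complex, was at 6.13% to 8.61% in Sox7+/- ES cells, with 2 of 3 arrays above background, and at 19.7% to 20.3% in Sox7-/- ES cells (1.42, limma adjusted p = 7.28e-05). The median of the 20 was 0.42, beside 0.10 over all tested probes.

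In XEN-like cells 4 of the 20 meiosis genes were higher in Sox7-/- cells and 1 was lower, beside 3.86% and 3.64% of all tested probes. *Tex11* was at 21.3% to 23.7% in Sox7-/- and not above background on the Sox7+/- arrays, at least 2.03-fold higher (adjusted p = 5.81e-07). *Rec8*, the meiotic kleisin of cohesin, was at 93.1% to 101% in Sox7+/- and 193% to 217% in Sox7-/- cells (1.05, SE 0.07, adjusted p = 6.32e-06). *Syce1* (1.26) was called higher as well, as was *Tex12*, which was not above background on any Sox7+/- array and is given no size, and *Mei1* was at least 1.33-fold lower in Sox7-/- cells, with 1 of 3 Sox7+/- arrays above background. The median of the list was 0.45, beside 0.0007 over all tested probes.

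Of 11 tested genes of germ cell specification 1 was called in ES cells, a share near that of all tested probes (1.95% higher and 6.67% lower). It was *Tdrd7*, a Tudor domain gene of germ granules, at 92.5% to 94.4% in Sox7+/- and 23.1% to 27.8% in Sox7-/- cells (−1.88, SE 0.10, adjusted p = 5.32e-07). In XEN-like cells *Dnd1* was higher (1.16) and *Ifitm1* lower (−3.04), where 3.86% of all tested probes were called higher and 3.64% lower. Of 16 tested genes of the piRNA pathway or silenced by methylation, *Tex14* was higher (1.28, adjusted p = 0.0147) and *Tdrd5* lower (−1.29, adjusted p = 0.0207) in ES cells. In XEN-like cells 3 of these 16 passed the test as higher and none as lower (limma, 2 at an unadjusted p under 0.05). These counts stand beside the same 3.86% and 3.64% of all tested probes. Of the 3, *Gtsf1* and *Piwil2* were not above background on any XEN-like array. The measured difference was that of *Pld6* (1.31), at 30.7% to 35.4% in Sox7+/- and 74.3% to 93.2% in Sox7-/- cells.

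Genes for the repressors of germline genes did not reach a 2-fold difference. The list held 21 genes, among them those for Mga, Max, E2f6, their Polycomb partners and the DNA methyltransferases. Of these 21, limma called 0 in ES cells and 0 in XEN-like cells. The shares of all tested probes were 1.95% higher and 6.67% lower in ES cells, and 3.86% and 3.64% in XEN-like cells. A count of 0 of 21 is near these shares. By the adjusted p alone 14 were higher and 0 lower in Sox7-/- ES cells, and at an unadjusted p under 0.05 it was 17 and 0. Their median there was 0.42, beside 0.10 over all tested probes, between groups that lay on different slides. Among XEN-like cells the adjusted p gave 8 higher and 1 lower, and 10 and 1 at an unadjusted p under 0.05. The median there was 0.19, beside 0.0007 over all tested probes. The share of all tested probes that passes a p threshold alone was not counted, so these counts are a description.

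Retinoic acid induces *Stra8* in germ cells, and 15 genes of retinoic acid transport, breakdown and response were tested. In ES cells 6 were lower in Sox7-/- cells, beside 6.67% of all tested probes, and 0 higher (2 at an unadjusted p under 0.05), beside 1.95%. Their median was −0.54, beside 0.10 over all tested probes. *Cyp26a1*, a retinoic acid hydroxylase and well-known retinoic acid target, was at 200.4% to 237% in Sox7+/- and 86.7% to 95.5% in Sox7-/- ES cells (−1.24, SE 0.21, adjusted p = 0.000983). *Cyp26b1* was at least 1.78-fold lower, and *Dhrs3* (−1.67) and *Stra6* (−1.24) were lower as well. Among these genes *Cyp26b1* was the 1 called in XEN-like cells, at least 3.45-fold lower, beside 3.64% of all tested probes called lower there. It was above background in Sox7+/- cells only, so it entered the test through them and could not have been called higher in Sox7-/- cells.

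**Figure D4:**
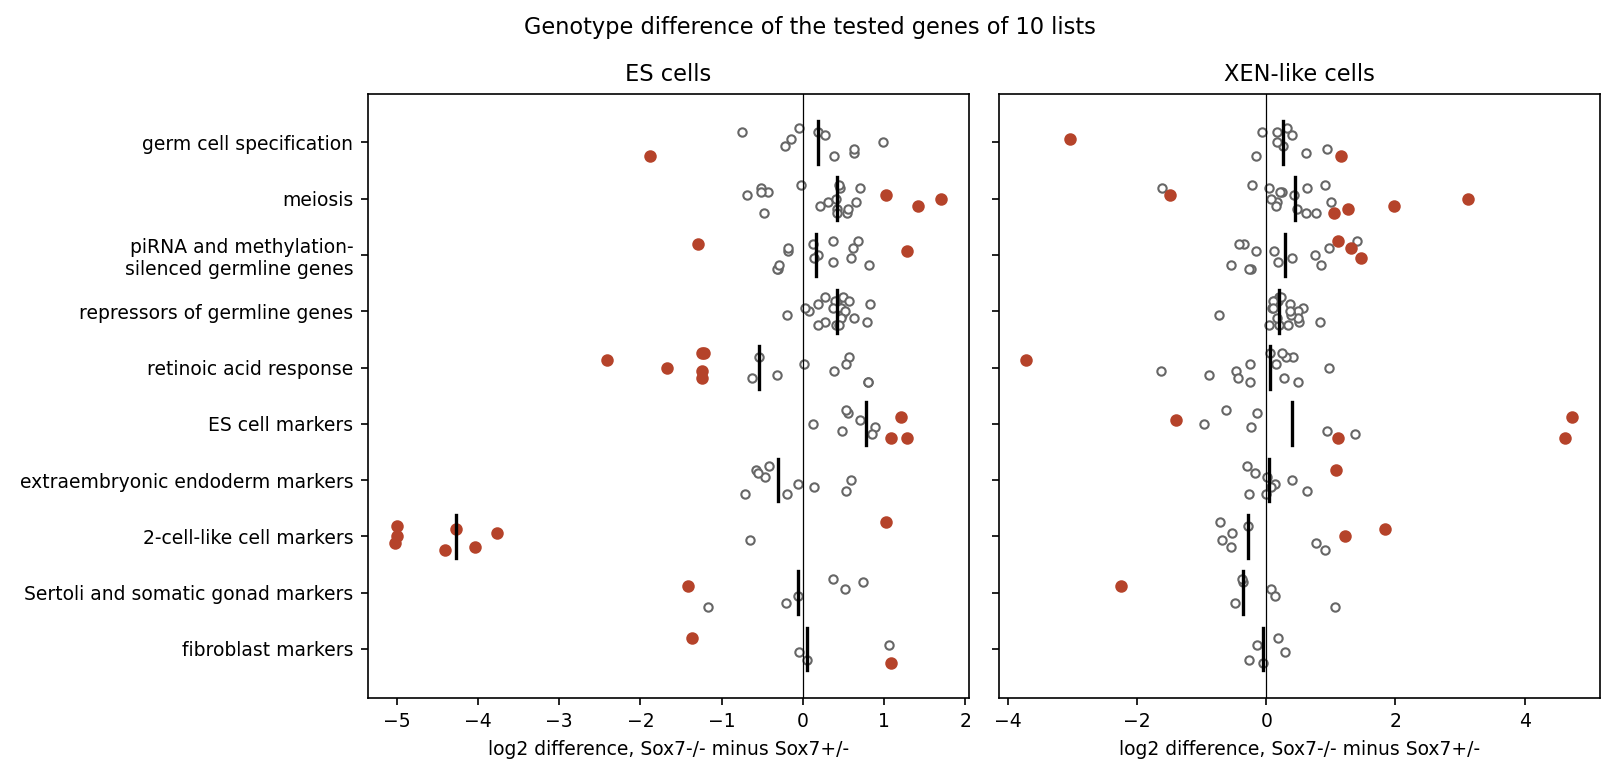
Log2 difference, Sox7-/- minus Sox7+/-, of the tested genes of 10 lists in ES cells and in XEN-like cells, 1 circle per gene, with called genes filled and the median of each list as a black line. The 2-cell-like markers lie far left in ES cells, with a median of −4.27, while 6 of the 15 retinoic acid genes are called lower and 3 of the 20 meiosis genes higher.

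Markers of other cell kinds moved with the genotypes too. The summed signal of the ES cell markers was higher in Sox7-/- cells, at 68995% to 73093% against 37122% to 37926% in ES cells. In XEN-like cells the sums were 1560% to 1930% against 702% to 1098%. By the sign of the difference alone, 10 of 10 were higher in Sox7-/- ES cells but only 5 of 10 in Sox7-/- XEN-like cells. In ES cells 3 of the 10 were called higher and 0 lower, and 6 were higher by the adjusted p alone. Of all tested probes 1.95% were called higher and 6.67% lower in ES cells, and 3.86% and 3.64% in XEN-like cells. By the adjusted p alone 4 were higher and 3 lower in XEN-like cells. Called higher in Sox7-/- XEN-like cells were *Esrrb* (4.63), *Zfp42* (1.11) and *Tcl1* (at least 6.54-fold), and *Klf2* was lower (−1.40), while *Nanog*, *Sox2* and *Fgf4* were not above background in either genotype. Cells of the 2-cell-like kind are a small part of an ES culture that expresses genes of the early embryo. Their markers summed to 10935% to 11711% in Sox7+/- and 1858% to 2451% in Sox7-/- ES cells, with 7 of 9 called lower and 1 called higher. Of 7 tested somatic gonad markers *Wt1* was lower in both states (−1.42 and −2.25), with *Amh* not above background on any array. Of 5 tested fibroblast markers 1 was higher and 1 lower in ES cells and 0 were called in XEN-like cells, by limma and also at an unadjusted p under 0.05. Their part in the differences of the germline genes was not tested.

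The genes whose signal followed *Stra8* most closely over the 12 arrays were not germline genes by name. Among 18971 genes the highest Pearson correlations were those of a transcript listed as ENSMUST00000089689 (0.996), *Nup133* (0.995), a probe target listed as NAP112388-1 (0.995), *Cdc5l* (0.995) and *Zfp59* (0.994). The arrays form 4 groups, so these values describe shared group means. *Zfp59* had group means of 650.0% in Sox7-/- ES cells, 288% in Sox7+/- ES cells, 121% in Sox7-/- XEN-like cells and 96.7% in Sox7+/- XEN-like cells, the same order as *Stra8*. Among the germline genes *Dazl* (0.93), *Mael* (0.92) and *Sycp3* (0.91) came nearest, and *Tex101* (0.32) was farthest.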

How the data were processed

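The authors labelled total RNA with Cy3 and used 12 Agilent arrays of 1 colour (SurePrint G3 Mouse GE 8x60K), 3 for each of 4 groups, read with Agilent Feature Extraction 10.7.3.1. The deposited intensity values used here are the authors' processed signals, background-subtracted within each array and not scaled between arrays. The deposited table of the series holds intensity values within 0.498% of the mean spot signal, without background subtraction, and served as an alternative. Background and outlier calls per spot were read from the deposited scanner output. Probe positions are those deposited, on mm9.

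Processed signals were divided by the 75th percentile of their array and log2-transformed, outlier spots and controls were left out, and spots of 1 probe were averaged. A gene was read by its brightest probe. limma 3.58.1 (R 4.3.3) fitted 1 mean per group over all 12 arrays, with 5 comparisons. The number of arrays limits the precision. The steps were tested on simulated data. The numbers of replicates did not pair the arrays, since deviations of arrays with the same number correlated by −0.051 to 0.126. The members, the lists and the tests were chosen with earlier results of these data known. All 10 members were named with every probe, *Sox7*, from each list at most the 4 largest called genes in each direction, and the 5 genes most correlated with *Stra8*. Alternatives were normexp with an offset of 50, quantile, median and spike-in scaling, the deposited table, 2 other filters, an intensity trend, 1 probe for each symbol, a fit of the compared arrays alone, replicate and slide blocks, single slides, the adjusted p alone and leaving out each array.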

Additional observations from a re-analysis of the deposited data

Results flagged for a closer look

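The Dex response differed between the genotypes, by the interaction test in limma, in 6 of the 9 genes other than *Stra8*. The log2 response was higher in Sox7-/- than in Sox7+/- cells by 2.4486 for *Smc1b*, 1.4454 for *Ddx4*, 1.3189 for *Tex101*, 1.2248 for *Sycp3* and 1.2083 for *Mael*. It was lower by 1.4094 for *Dazl* (difference −1.4094). For *Ddx4* and *Sycp3* all 12 arrays were above background. No XEN-like array was for *Dazl*, no Sox7+/- XEN-like array was for *Mael* and *Smc1b*, and 1 was not for *Tex101*. The sizes of these 4 are therefore not measured ones. With normexp correction *Dazl* (−0.90), *Mael* (0.024), *Tex101* (0.41) and *Sycp3* (0.86) were no longer called. The deposited table likewise lost *Dazl* (−0.64), *Mael* (0.53) and *Tex101* (0.89). It gained *Dppa3* (1.39, limma adjusted p = 3.37e-05), which was not above background on any XEN-like array.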

How the results depend on the processing

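Counts of called genes were 2 in ES cells, 5 in XEN-like cells, 9 and 7 for Dex in Sox7+/- and Sox7-/- cells and 6 for the difference in response. With the replicate block they were again 2, 5, 9, 7 and 6. With normexp correction they were 1, 1, 6, 4 and 2 in the same order. A filter for probes above background on all arrays, which drops most of these genes from testing, gave 0, 2, 2, 1 and 2. The deposited table gave 2, 2, 6, 6 and 4, and the slide block gave 1 in ES cells and 6 for Dex in Sox7-/- cells. The adjusted p alone gave 4 in ES cells and 7 in XEN-like cells. Leaving out 1 array gave 2 to 4 in ES cells, 5 to 6 in XEN-like cells, 9 for Dex in Sox7+/- cells, 6 to 7 in Sox7-/- cells and 5 to 7 for the difference in response. Named by array, *Mael* in the difference in response was at 0.99 without Sox7+/- XEN-like replicate 1, and *Sycp1* lost its call for Dex in Sox7-/- cells without Sox7-/- ES replicate 3 or Sox7-/- XEN-like replicate 2 (adjusted p = 0.0525 and 0.0505) and with the slide block (0.171). *Dazl* in ES cells passed 2-fold without Sox7+/- ES replicate 2 (1.04) or 3, or Sox7-/- ES replicate 1 (1.04). With quantile normalization *Dazl* passed it too (1.13). Among genes below background, *Dppa3* gained a call in the difference in response with the deposited table (1.39). It also did so without Sox7+/- XEN-like replicate 2 (1.37) or Sox7-/- ES replicate 3 (1.37). In XEN-like cells *Dppa3* gained a call without Sox7+/- XEN-like replicate 3 (−1.13), and *Prdm1* without Sox7-/- XEN-like replicate 2 (−1.29).

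Some differences changed sign, none of which had been called. With normexp these were *Sycp1* in XEN-like cells (−0.13) and in the difference in response (−0.29), and *Tex101* in XEN-like cells (−0.034) and for Dex in Sox7-/- cells (−0.0078). *Tex101* for Dex in Sox7-/- cells also turned with median scaling (−0.0905), spike-in scaling (−0.051) and the deposited table (−0.0054). *Dppa3* in XEN-like cells turned from −0.89 with the deposited table (0.0072). With the slide block *Mael* (−0.034) and *Sycp1* (−0.048) turned in ES cells, and *Prdm1* in the difference in response (−0.38). Leaving out 1 array gave −0.57 to 0.43 for *Prdm1* and −0.19 to 0.68 for *Sycp1* in the difference in response, and −0.031 to 0.15 for *Tex101* for Dex in Sox7-/- cells. The cause was not tested. Of the 580 values of single genes under other alternatives 525 counted as unchanged in direction and call, as did 580 of 600 with 1 array left out. *Stra8* had no call to keep in the comparisons that use ES cells. Its values there were judged by size, and 13 moved under other alternatives. Spike-in scaling moved the median of all tested probes to 0.24 in XEN-like cells and −0.33 for Dex in Sox7+/- cells, from 0.0007 and 0.16. In Sox7+/- XEN-like cells 7 of the 10 genes were not above background on any array and in Sox7-/- XEN-like cells 4 were not, which bounds their folds there.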
